A study of Mus musculus with 8 samples.

Results

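SFTPA1, SFTPB, SFTPC, SFTPD, SLC34A2, ABCA3, LAMP3, NAPSA, SCGB1A1 and SCGB3A2 are genes of lung secretory cells, and their levels were described in cultured thyroid follicular cells. They were picked by symbol and make up 10 of the 16119 genes listed in mouse thyroid follicular cell organoids (TFCOs), primary thyroid tissue and primary lung tissue. The first 8 names belong to alveolar type 2 cells, whereas SCGB1A1 and SCGB3A2 belong to secretory cells of the airway. The list was chosen by the levels seen in TFCOs, thyroid and lung in these same libraries, so the comparisons of its members among these 3 groups are given as a description with no test. The members had not been picked by their change between passages, which was tested.

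Pulmonary surfactant is a film of phospholipid and protein that lowers surface tension in the alveoli, and it is made by alveolar type 2 cells, which store it in lamellar bodies. The transcription factor NKX2-1 is needed for the development of both the lung and the thyroid. In lung epithelium it acts with forkhead (FOXA), GATA6 and C/EBP factors on surfactant and secretoglobin genes, and in thyroid follicular cells it acts with PAX8 and FOXE1 on genes such as thyroglobulin.

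RNA of 8 libraries was measured, 2 in each of 4 groups, all from wild-type C57BL/6 mice with no treatment. Early TFCOs and late TFCOs were the same lines, mThy14 and mThy16, sequenced at an early and at a late passage. The lines were grown from digested thyroid in basement membrane extract, with R-spondin 3, forskolin, A83-01, EGF and FGF10 in the medium, and the methods give female mice as their source. The other groups were uncultured thyroid tissue and uncultured lung tissue. The age of the mice is not given in the sources used here, and each TFCO line stands for 1 culture. In bulk RNA, fewer cells of a type and less RNA per cell cannot be told apart. Values are normalized counts (the reads counted on a gene over the size factor of that library), and 9755081 to 16904865 reads per library were counted on genes.

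Some genes with 0 reads divided the libraries into 2 sets that cut across the groups. No count for another split of the 8 libraries is given here. All 4 TFCO libraries and thyroid tissue 1 formed the first set, and thyroid tissue 2 and both lung tissues formed the second. In all, 44 genes had 0 reads throughout the second set and at least 50 normalized counts throughout the first, and 16 genes had the reverse pattern. Scgb3a2 was 1 of these 16, so for this gene a difference between TFCOs and lung cannot be told apart from the set. The other 9 members had at least 1 read in the first set. Set and tissue cannot be told apart in any comparison of TFCOs with lung, whereas thyroid tissue 1 can be compared with TFCOs inside the first set. Thyroid follicular cell markers summed to 1562288 and 2242087 normalized counts in thyroid tissue, to between 22568 and 167891 in TFCOs and to at most 599 in lung. Late mThy14 TFCOs stood apart for several genes below, and limits of the members that rest on this library are given with and without it.

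Upstream sequences from RefSeq promoter windows (assembly GRCm38.p6) are shown for Sftpb, Sftpa1, Lamp3 and Abca3, because NKX2-1 and forkhead factors are the regulators named for this group. Promoter entries of 5 of the 10 members were used, and the window of Slc34a2 lay inside the gene of the second annotation used (GENCODE M21) and is not printed. The sequences end at the base before the first GENCODE start. Capitals mark CTCAAG, the core of the NKX2-1 site (CTTGAG on the other strand), and TGTTTNC, the core of the forkhead site (GNAAACA on the other strand). Sftpb, at chr6:72304360-72304609 on the plus strand, held 2 NKX2-1 cores and 1 forkhead core. Sftpa1, at chr14:41131538-41131781 on the plus strand, held 1 NKX2-1 core. Lamp3, at chr16:19706376-19706615 on the minus strand, held 2 forkhead cores, and Abca3, at chr17:24351773-24351949 on the plus strand, held neither.
Sftpb: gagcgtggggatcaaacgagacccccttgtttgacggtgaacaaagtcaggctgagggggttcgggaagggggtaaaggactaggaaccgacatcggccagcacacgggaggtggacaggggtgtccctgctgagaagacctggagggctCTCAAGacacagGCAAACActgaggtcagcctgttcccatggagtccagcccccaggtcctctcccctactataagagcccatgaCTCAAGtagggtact
Sftpa1: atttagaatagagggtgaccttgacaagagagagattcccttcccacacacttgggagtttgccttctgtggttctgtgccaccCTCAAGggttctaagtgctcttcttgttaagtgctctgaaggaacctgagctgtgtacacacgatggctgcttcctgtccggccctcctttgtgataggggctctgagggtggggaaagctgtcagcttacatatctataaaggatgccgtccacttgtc
Lamp3: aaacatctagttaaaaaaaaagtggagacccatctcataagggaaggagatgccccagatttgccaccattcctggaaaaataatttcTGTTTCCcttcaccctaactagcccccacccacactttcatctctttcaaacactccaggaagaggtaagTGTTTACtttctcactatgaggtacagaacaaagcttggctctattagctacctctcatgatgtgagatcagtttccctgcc
Abca3: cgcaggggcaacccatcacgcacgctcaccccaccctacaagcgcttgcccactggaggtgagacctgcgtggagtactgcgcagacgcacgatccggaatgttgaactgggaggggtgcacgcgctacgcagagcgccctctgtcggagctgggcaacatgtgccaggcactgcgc
Distances are counted from the RefSeq start, which is the end of the 250-base window. In Sftpb the NKX2-1 cores lay 100 to 95 and 15 to 10 bases upstream of that start and the forkhead core lay 88 to 82 bases upstream. In Sftpa1 the NKX2-1 core lay 166 to 161 bases upstream of the RefSeq start. For Sftpa1 that start lies past the end of the 244 bases printed, so the core is nearer to the GENCODE start. The NKX2-1 core occurred in 13.3% and the forkhead core in 17.8% of the 32851 promoter windows of 250 bases. These are matches of letters and not measured sites.

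In TFCOs the members divided into genes that were well expressed and genes near 0. Sftpb, Sftpd, Slc34a2, Abca3 and Napsa had at least 920.1 normalized counts in every TFCO library, and Sftpc, Sftpa1, Scgb1a1, Lamp3 and Scgb3a2 had at most 266. Without late mThy14 these limits were 2066 and 35.7. In contrast, all 10 had at least 4260.1 normalized counts in each lung tissue. Together the members took 9.38% (tissue 1) and 5.00% (tissue 2) of all normalized counts in lung, 0.0894 to 0.445% in TFCOs, and 0.0289% (tissue 1) and 0.0760% (tissue 2) in thyroid. The first group was itself of 2 kinds. Sftpb, Sftpd and Slc34a2 were near 0 in thyroid tissue, whereas Abca3 and Napsa were also present there.

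**Figure D1:**
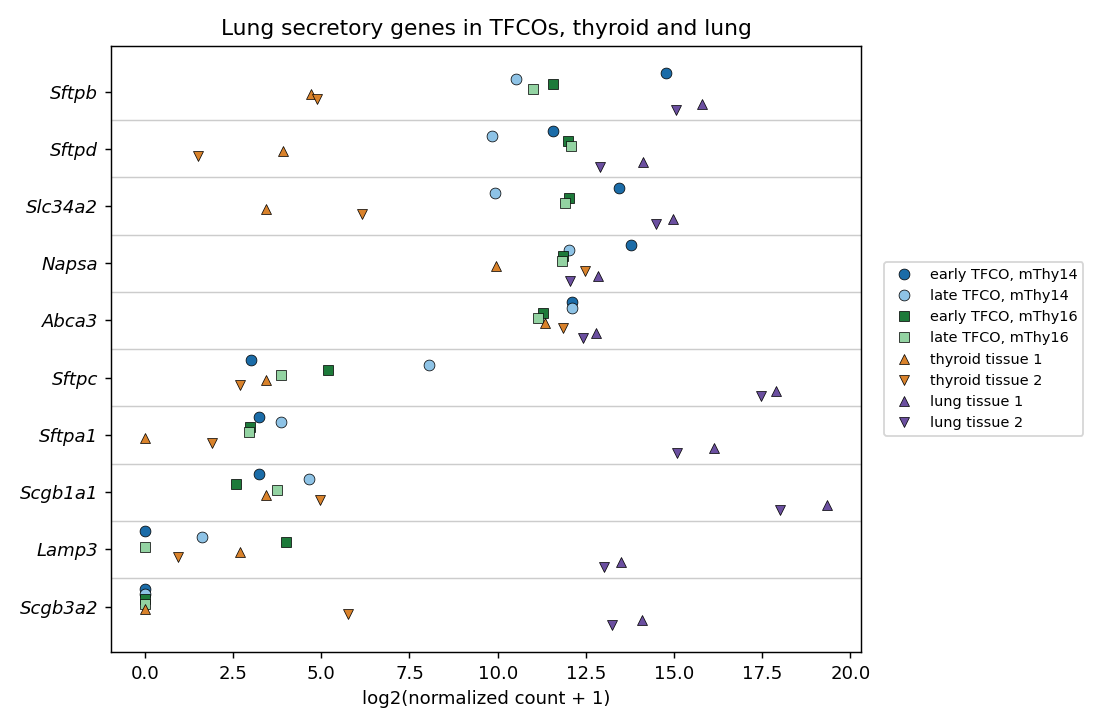
Levels of the 10 genes in each of the 8 libraries, as log2(normalized count + 1) on the horizontal axis, with 1 mark per library and no averaging. Sftpb, Sftpd and Slc34a2 in TFCOs lay between thyroid and lung, Napsa and Abca3 overlapped thyroid tissue, and the other 5 genes in TFCOs lay far below lung.

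Sftpb (chr6:72304610-72314371 on the plus strand in GENCODE M21, GRCm38) encodes surfactant protein B, a hydrophobic peptide that brings phospholipid into the surface film. In mThy14 TFCOs Sftpb was at 28177 normalized counts early and 1475 late, and in mThy16 TFCOs at 3031 early and 2066 late. Thyroid tissues 1 and 2 were at 25.0 and 28.6 normalized counts, and lung tissues 1 and 2 at 56914 and 34374. Early mThy14 TFCOs were close to lung and the remaining TFCO libraries lay between lung and thyroid, with no overlap among the 3 groups. The lowest TFCO library was 51.6 times the highest thyroid tissue and 58.9 times thyroid tissue 1, or 72.3 and 82.5 times without late mThy14. The mean log2 difference between TFCOs and thyroid tissue was 7.18, with an SD of 0.97 between the 2 lines, and 7.27 against thyroid tissue 1 alone. Here and below, the SD between lines is of values averaged over both passages of a line. As a share of the lung mean, Sftpb ranged from 3.23 to 61.7% in TFCOs, and its highest value without early mThy14 was 6.64%.

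Sftpd encodes surfactant protein D, a secreted collectin that binds sugars on microbes. Early TFCOs had 3046 (mThy14) and 4075 (mThy16) normalized counts, late TFCOs had 920.1 and 4284, thyroid tissue had 14.2 and 1.84 (13 and 2 reads), and lung tissue had 17951 and 7579. Both mThy16 libraries and early mThy14 were close to one another, late mThy14 was the lowest TFCO library, and the groups did not overlap. The lowest TFCO library was 65.0 times the highest thyroid tissue, which was thyroid tissue 1, and this rests on late mThy14, without which it was 215 times. The mean log2 difference from thyroid tissue was 8.65, with an SD of 0.93 between lines, and 7.45 against thyroid tissue 1 alone. Sftpd had the highest median share of lung in TFCOs of these 3 genes, 27.9%, against 14.5% for Slc34a2 and 5.58% for Sftpb.

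Slc34a2 (chr5:53038081-53071664, plus strand) encodes the sodium-phosphate cotransporter NaPi-IIb of the apical membrane, which in the alveolus takes up phosphate. Early TFCOs held 11119 (mThy14) and 4151 (mThy16) normalized counts, late TFCOs 970.1 and 3824, thyroid tissues 1 and 2 held 9.80 and 70.1, and lung tissues 1 and 2 held 32213 and 22898. As for Sftpb, early mThy14 was the highest TFCO library, late mThy14 was the lowest, and no group overlapped another. The lowest TFCO library was 13.8 times thyroid tissue 2 and 99.0 times thyroid tissue 1. Both rest on late mThy14, without which they were 54.6 and 390.3 times. The mean log2 difference from thyroid tissue was 7.03 (SD 0.20 between lines), with 8.39 against thyroid tissue 1 and 5.67 against thyroid tissue 2. This SD is small because the passages were averaged first. On the log2 scale mThy14 minus mThy16 was 1.42 early and -1.98 late.

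Sftpd lies near a member that was close to 0 in TFCOs. In the same annotation, Sftpa1 spans chr14:41131782-41136452 on the plus strand and Sftpd spans chr14:41172214-41185149 on the minus strand, 35761 bases apart with 2 annotated genes between them, of which Mbl1 codes for protein. Sftpa1 encodes surfactant protein A, also a collectin. Sftpa1 was at 8.43 (early) and 13.5 (late) normalized counts in mThy14 TFCOs and at 6.93 and 6.71 in mThy16 TFCOs, which is 6 to 13 reads per library. Thyroid tissue 1 had 0 reads and thyroid tissue 2 had 3, whereas lung had 71812 and 34695 normalized counts. Sftpa1 was therefore at 0.0126 to 0.0254% of its lung mean in the libraries where Sftpd was at 7.21 to 33.6%, or at 23.9% and above without late mThy14.

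Abca3 and Napsa differed from these genes in thyroid tissue rather than in TFCOs. Abca3 (chr17:24351950-24410201, plus strand) encodes the lipid transporter of the lamellar body membrane. In mThy14 TFCOs it was at 4404 normalized counts early and 4403 late, in mThy16 TFCOs at 2487 early and 2280.4 late, in thyroid tissues 1 and 2 at 2595 and 3704, and in the lung tissues at 7097 and 5434. The thyroid values lay inside the range of the TFCOs, and both mThy14 libraries were above both mThy16 libraries. The mean log2 difference between TFCOs and thyroid tissue was 0.06, below the SD of 0.63 between lines, and it was -0.31 with quantile normalization. All TFCO libraries lay below both lung tissues, at 36.4 to 70.3% of the lung mean.

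Napsa (chr7:44572380-44586862, plus strand) encodes napsin A, an aspartic protease that takes part in the processing of surfactant protein B. Early mThy14 and mThy16 TFCOs had 14180.3 and 3725 normalized counts, late ones had 4147 and 3592, thyroid tissues 1 and 2 had 992 and 5711, and lung tissues 1 and 2 had 7287 and 4260.1. Napsa was the only member whose TFCO libraries overlapped lung, with early mThy14 above both lung tissues and the other TFCO libraries below them. The thyroid tissues lay on either side of most TFCO libraries. The log2 difference of TFCOs was 2.42 against thyroid tissue 1 and -0.11 against thyroid tissue 2, so its direction rests on the tissue chosen. Within the second set, thyroid tissue 2 differed from lung by 0.04 on the log2 scale. Napsa overlaps the antisense gene Gm15396 and Abca3 overlaps the antisense transcript D330041H03Rik, and the sources used here do not settle whether reads were counted by strand.

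Levels of different genes can be compared after division by transcript length, here the longest coding transcript in GENCODE M21, if reads covered the whole transcript. The labels describe a library read from the 3' end and the methods a kit that covers the transcript, so this scale is uncertain. On it, mean levels in TFCOs were 5830 normalized counts per kilobase for Sftpb, 4109.6 for Napsa, 2417 for Sftpd, 1201 for Slc34a2 and 524 for Abca3. Without early mThy14 the mean was 1470.2 for Sftpb, 2449.5 for Napsa, 2426 for Sftpd and 714 for Slc34a2. The ranges of Sftpb, Napsa, Sftpd and Slc34a2 over TFCO libraries overlapped, so their order is not separated by the spread between libraries. In lung the order on the same scale was led by Scgb1a1 (974028) and Sftpc (266459), with Sftpb at 30634, Sftpd at 10012, Slc34a2 at 6598, Napsa at 3701 and Abca3 at 968.

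The remaining members, Sftpc, Scgb1a1, Lamp3 and Scgb3a2, were near 0 in TFCOs compared with lung. Sftpc (chr14:70520949-70524081, minus strand) encodes surfactant protein C, a hydrophobic peptide made almost only by alveolar type 2 cells. Lung tissues 1 and 2 were at 241128 and 180943 normalized counts, mThy14 TFCOs at 7.03 early and 266 late, mThy16 TFCOs at 35.7 early and 13.4 late, and thyroid tissues 1 and 2 at 9.80 and 5.53. Late mThy14 was the highest, with 256 reads, and the remaining TFCO libraries had 5 to 36 reads, overlapping thyroid tissue. Even late mThy14 was at 0.126% of the lung mean, and without it the highest was 0.0169%.

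Scgb1a1 (chr19:9083636-9087958, minus strand) encodes the main secretory protein of club cells. It reached 665857 and 261418 normalized counts in the lung tissues, against 8.43 (early) and 23.9 (late) in mThy14 TFCOs, 4.95 and 12.3 in mThy16 TFCOs, and 9.80 and 30.4 in thyroid tissues 1 and 2. TFCO and thyroid libraries overlapped, and in TFCOs Scgb1a1 was at no more than 0.00516% of its lung mean. The log2 difference of TFCOs changed sign with the tissue, being 0.11 against thyroid tissue 1 and -1.43 against thyroid tissue 2.

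Lamp3 (chr16:19653378-19706375, minus strand) encodes a membrane protein of lysosomes and lamellar bodies. It had 0 reads in early mThy14 and late mThy16 TFCOs, 14.9 normalized counts in early mThy16 TFCOs and 2.08 in late mThy14 TFCOs. Thyroid tissues were at 5.44 and 0.922 normalized counts and lung tissues at 11496 and 8197. The TFCO and thyroid libraries overlapped and the highest, early mThy16, was at 0.151% of the lung mean. Of the 50-base stretches of its transcript, 5.11% also occur in other genes. Scgb3a2, a secretoglobin of airway secretory cells, had 0 reads in all 4 TFCO libraries and in thyroid tissue 1, 53.5 normalized counts in thyroid tissue 2, and 17514 and 9593 in lung tissues. A count of 0 allows up to 3 reads, which for Lamp3 corresponds to 0.0428% of the lung mean in early mThy14 and 0.0341% in late mThy16. For Scgb3a2 in the TFCO libraries it corresponds to 0.0219 to 0.0311% of the lung mean and covers counting error only.

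**Figure D2:**
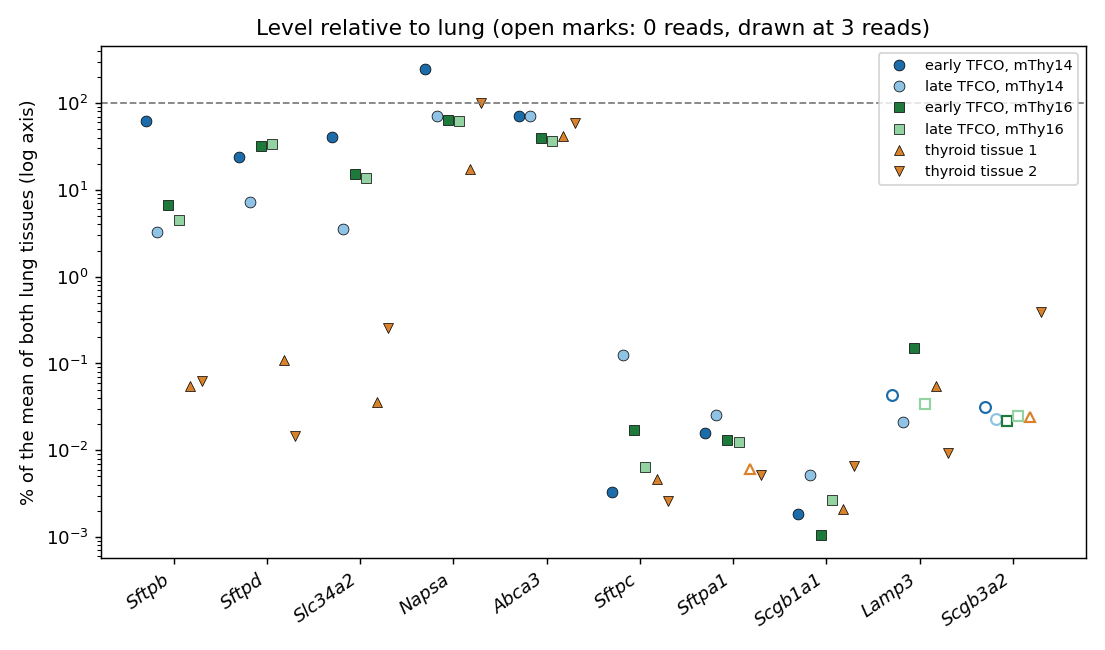
Each TFCO and thyroid library as a percentage of the mean of both lung tissues, on a log axis, with the dashed line at 100%. Open marks are libraries with 0 reads, drawn at the level of 3 reads. Sftpb, Sftpd, Slc34a2, Napsa and Abca3 in TFCOs lay at 3.23% or more of lung, and the other 5 genes at 0.151% or less.

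Counts of non-overlapping libraries are given with the share of all 14703 tested genes that showed the same pattern, and nothing is read from them, since the members were chosen on this contrast. All 4 TFCO libraries lay above both thyroid tissues for 4 members, Sftpa1, Sftpb, Sftpd and Slc34a2, and for 17.2% of all genes. All 4 lay below both lung tissues for 9 members, all but Napsa, and for 33.3% of all genes. All 10 members passed the filter on low values (at least 10 normalized counts in at least 2 libraries), but Sftpa1, Lamp3 and Scgb3a2 did so only with lung libraries counted.

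Between passages no member passed the test, which does not bear on all 10. Sftpa1, Lamp3 and Scgb3a2 had too few reads in TFCOs for a test of passage, having entered it through lung libraries. Among TFCO libraries Scgb1a1 reached the filter of 10 normalized counts only at the late passage, where it was higher. It had 5 to 23 reads there and at the early passage, so no test of passage is given for it either. With limma on log2(normalized counts + 1) and Benjamini-Hochberg adjustment over 14703 genes, 0 genes (0%) differed between late and early TFCOs. The adjusted p was 1 for each of the remaining members. At an unadjusted p under 0.05 there were 166 genes, of which Sftpb was the single member. Sftpb had a log2 change of -2.40 with a standard error of 0.87. With the TFCO line as a block its adjusted limma p was again 1. For Slc34a2 the log2 change was -1.82 with a standard error of 0.95. Changes of Sftpc, Sftpd, Abca3 and Napsa were between -0.91 for Napsa and 1.86 for Sftpc, each within 2 standard errors of 0. Scgb3a2 had no reads at either passage, so its change could not be measured.

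The lines differed in what lay behind these means. In mThy14, the late library was 19.1-fold lower than the early one for Sftpb, 11.5-fold for Slc34a2, 3.42-fold for Napsa and 3.31-fold for Sftpd, while Abca3 had a ratio of 1.00. In mThy16 the late library was 1.47-fold lower for Sftpb and 1.09-fold for Slc34a2, and the log2 changes of Sftpd, Napsa and Abca3 were 0.07, -0.05 and -0.12. With 1 library per line and passage, these within-line changes have no replicate check. On log2(normalized count + 1), late values were lower by 2-fold or more for 4 members in mThy14, against 16.6% of all genes, and for 2 members, Sftpc and Lamp3, in mThy16, against 6.99% of all genes. In both lines at once this was so for 0 members and for 2.39% of all genes. Late values were higher by 2-fold or more on this scale for Sftpc, Lamp3 and Scgb1a1 in mThy14 and for Scgb1a1 in mThy16. The share of all genes with such a rise was not computed, so nothing is read from it. Scgb1a1 went from 6 to 23 reads in mThy14 and from 5 to 11 reads in mThy16. Lamp3 in mThy14 had 0 reads early and 2 late.

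Sftpb thus had the higher level in mThy14 at the early passage, by 3.22 on the log2 scale over mThy16, and not at the late passage, where the difference was -0.49. For Slc34a2 these differences between lines were 1.42 and -1.98. Abca3 was higher in mThy14 at both passages, by 0.82 and 0.95. Leaving out each TFCO library in turn gave passage changes of Sftpb between -4.01 and -0.80 and of Slc34a2 between -2.81 and -0.83 on the log2 scale, with no adjusted p under 0.05.

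**Figure D3:**
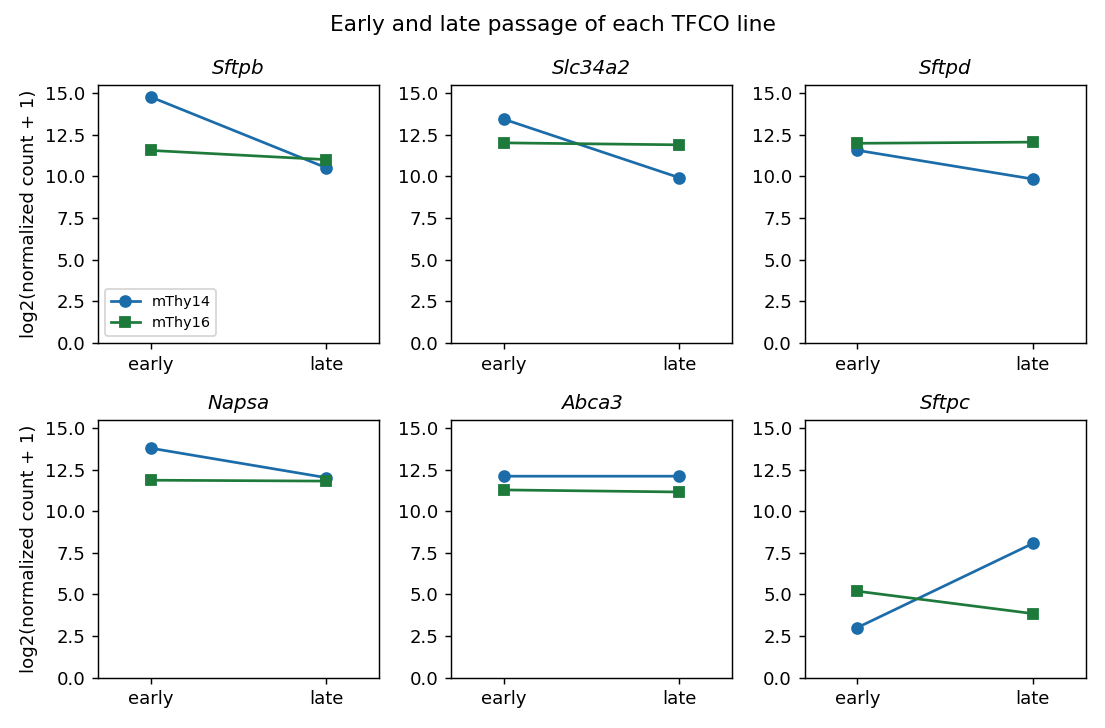
Early and late passage of each TFCO line for 6 genes, as log2(normalized count + 1), with 1 library per point and lines joining the passages of the same TFCO line. Sftpb, Slc34a2, Sftpd and Napsa were lower at the late passage in mThy14 and nearly level in mThy16, and Sftpc in mThy14 went from 7.03 to 266 normalized counts.

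The regulators known for these genes were then examined with the same tests. Nkx2-1 was at 12087 (early) and 11848 (late) normalized counts in mThy14 TFCOs, 4422 and 3521 in mThy16 TFCOs, 7778 and 4401 in thyroid and 2889.8 and 1721 in lung. Its levels in TFCOs lay across those in thyroid tissue (log2 fold change 0.23, standard error 0.63, limma adjusted p = 0.850). Of 24 lung epithelial transcription factors, 4 were higher in TFCOs than in thyroid tissue and 0 were lower, where 0.599% of all genes were higher and 3.05% were lower. These were Ehf (log2 fold change 3.95, limma adjusted p = 0.0119), Elf5 (3.56, limma adjusted p = 0.0394), Cebpd (2.91, limma adjusted p = 0.00825) and Etv5 (2.44, limma adjusted p = 0.0189). Ehf and Elf5 are epithelial ETS factors, Etv5 is an ETS factor that responds to FGF signalling, and Cebpd belongs to the C/EBP family. The median log2 fold change of the 24 was 1.03, against 0.05 over all genes, and 20 of 24 were above 0. This list and those below were chosen with earlier results of these data known. Their counts and medians beside those of all genes are therefore a description. The shares of all genes against thyroid tissue given here hold for the lists below as well.

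The classical partners of NKX2-1 did not pass the test against thyroid tissue. Foxa2 had a log2 fold change of 1.97 (limma adjusted p = 0.235), Cebpa of 1.09 (limma adjusted p = 0.283), Gata6 of 1.08 (limma adjusted p = 0.405) and Foxa1 of 0.32 (limma adjusted p = 0.888). Foxa1 and Foxa2 had 111 and 326 normalized counts in early mThy14, 15.6 and 124 in late mThy14, and 494 to 551 and 771 to 800.1 in mThy16. Against lung, Gata6 was lower in TFCOs (log2 fold change -2.90, limma adjusted p = 0.0286), and Cebpa had a log2 fold change of 0.02 (limma adjusted p = 0.981). Against lung, 6 of the 24 factors were higher in TFCOs and 3 lower, where 9.83% of all genes were higher and 13.5% lower. The higher ones were led by Sox9 (log2 fold change 9.25) and Etv4 (6.02), which act in the developing lung. Sox9 was also high in uncultured thyroid, at 3807 and 2343 normalized counts against 3917 to 9208 in TFCOs. Etv4 was at 81.6 and 18.4 in thyroid and 64.5 to 443 in TFCOs. Neither passed the test against thyroid tissue (limma adjusted p = 0.303 for Sox9 and 0.282 for Etv4). Against thyroid tissue, 2 of the 24 factors were higher without thyroid tissue 2, with either lung tissue left out and in a fit of these groups only. Against thyroid tissue 1 alone the log2 differences were 4.61 for Ehf, 3.38 for Elf5, 2.94 for Cebpd and 2.19 for Etv5. With lung tissue 1 or lung tissue 2 left out, 1 factor was higher than in lung and 0 were lower.

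Of 18 listed genes of surfactant processing and lipid handling, 17 were in the table and 0 passed the test against thyroid tissue in either direction, with a median log2 fold change of 0.06. Ctsh, a cathepsin that takes part in the processing of surfactant protein B, was at 11317 (early) and 6749.8 (late) normalized counts in mThy14 TFCOs, 4984 and 4959 in mThy16 TFCOs, 2849 and 3785 in thyroid and 6467 and 2856 in lung. All TFCO libraries were above both thyroid tissues, but the test did not pass (log2 fold change 1.01, standard error 0.54, limma adjusted p = 0.352). Against lung, 2 of the 17 were higher in TFCOs and 5 lower, where 9.83% of all genes were higher and 13.5% lower. The count of higher genes is near that share, and nothing is read from it. The higher genes were Srebf1 (log2 fold change 2.33) and Acaca (2.10), of fatty acid synthesis. Both were also above lung in uncultured thyroid. Acaca was at 4229 and 2147 normalized counts there against 2071 to 3127 in TFCOs, and Srebf1 at 2876 and 2060 against 3900 to 13611. The lower ones included Adgrf5 (-6.70), Lpcat1 (-4.49), Abcg1 (-3.51) and Prdx6 (-2.94), and Lpcat1 makes the saturated phosphatidylcholine of surfactant. Without lung tissue 1 the calls were 0 higher and 1 lower, and without lung tissue 2 there were 0.

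Most other markers of alveolar type 2 cells were below lung in TFCOs. Of 17 listed, 13 were in the table, 0 were higher and 1 was lower in TFCOs than in thyroid tissue, namely Cd74, the invariant chain of MHC class II (log2 fold change -5.14, limma adjusted p = 0.0246). Against lung, 8 were lower and 2 higher, where 13.5% of all genes were lower and 9.83% higher. The median log2 fold change of the 13 was -4.13 against 0.05 over all genes. This median includes Sfta2 (-9.58) and S100g (-8.24), which are set aside next, and is farther from 0 because of them. Of the 8, Sfta2 and S100g passed the filter on low values only with lung libraries counted, so no test is given for them and 6 lower genes are left. Sfta2, a surfactant-associated protein, had at most 1.04 normalized counts in TFCOs and 0 in thyroid tissue, against 1510.2 and 783 in lung. S100g, a calcium-binding protein, had at most 8.43 in TFCOs against 1027 and 694 in lung. Acoxl had a log2 fold change of -7.00. The 2 higher than in lung were Dlk1 and Parm1, and Parm1 had 1222 to 2448 normalized counts in TFCOs against 155 and 235 in lung. In thyroid tissues 1 and 2, Parm1 was at 790 and 3326 and Dlk1 at 43.5 and 10.1, so both were above lung there too. Against thyroid tissue 1 alone the log2 difference of Cd74 was -4.25. Its call was lost without thyroid tissue 2, with either lung tissue left out and in a fit of these groups only, and without late mThy14 TFCOs 2 of the 13 were lower. With lung tissue 1 or lung tissue 2 left out, the calls against lung were 0 higher and 2 lower.

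Of 21 other airway secretory genes, 18 were in the table. Against thyroid tissue 0 were higher and 3 lower in TFCOs, Bpifa1 (log2 fold change -6.97, limma adjusted p = 0.0477), Cckar (-6.04, limma adjusted p = 0.0215) and Lypd2 (-5.96, limma adjusted p = 0.0104), and the median was -1.31. Against thyroid tissue 1 alone the log2 differences were -4.69, -5.84 and -5.44 in the same order. The count of lower genes was 0 without thyroid tissue 2 (median 0.38), 0 in a fit of these groups only, 1 with either lung tissue left out and 2 without late mThy14. Against lung 11 were lower and 0 higher, where 13.5% of all genes were lower and 9.83% higher. Of the 11, Scgb3a1 and Reg3g passed the filter only with lung libraries counted. Scgb3a1, a further secretoglobin, had at most 5.59 normalized counts in TFCOs against 3277 and 3250.4 in lung. Bpifa1 had a log2 fold change of -10.50, Sec14l3 of -10.45 and Fmo2 of -9.83. Without lung tissue 1 or 2, 5 or 6 of the 18 were lower than in lung.

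**Figure D4:**
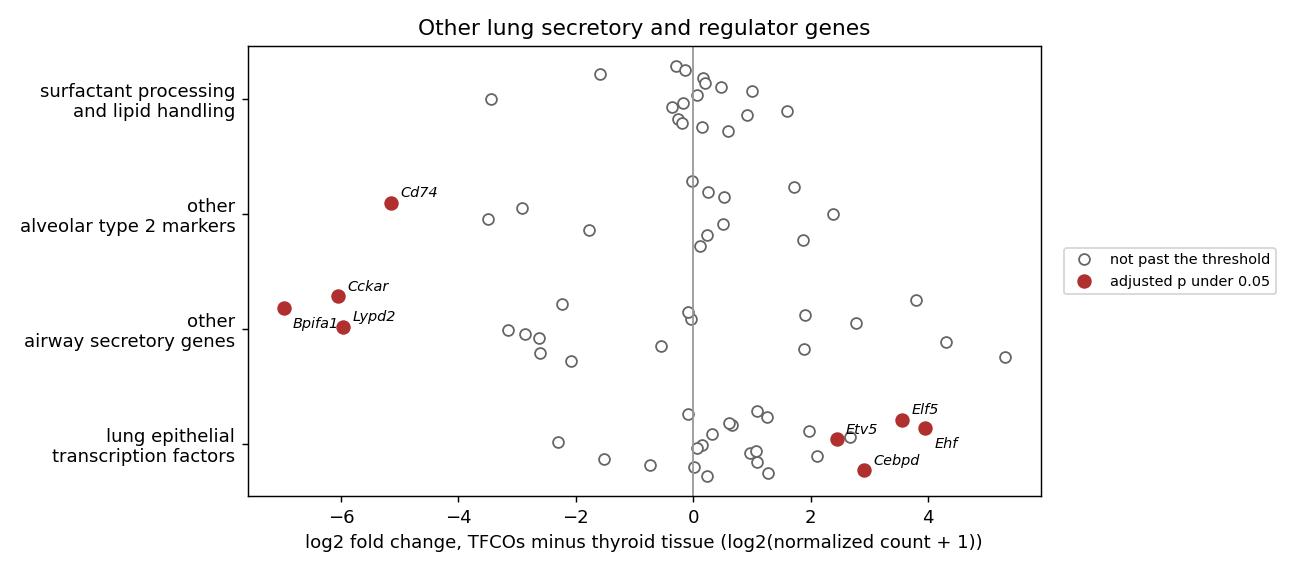
Log2 fold change of TFCOs against thyroid tissue for the genes of 4 lists, with each gene as 1 point and filled points for a limma adjusted p under 0.05. Filled points show that 4 transcription factors were higher in TFCOs, and 1 alveolar type 2 marker and 3 airway secretory genes were lower.

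Endothelial markers were lower in TFCOs than in both tissues, as 3 of 4 were called lower against thyroid (Cdh5, Cldn5 and Kdr) and 4 of 4 against lung. Over all genes, 3.05% were called lower than in thyroid tissue and 13.5% lower than in lung. Summed, they were 170 to 474 normalized counts in TFCOs, 1999.8 and 5899 in thyroid and 19987 and 37608 in lung, and the median log2 fold change against thyroid was -3.46. The 3 alveolar macrophage markers in the table summed to 65.4 to 118 in TFCOs, 283 and 438 in thyroid and 1991 and 3877 in lung, and 1 of them, Mrc1, was lower than in thyroid and all 3 were lower than in lung. Alveolar type 1 markers summed to 4767 to 28134 in TFCOs and 22049 and 22402 in thyroid, mostly from Ager. Aqp5 had 1126 to 7782 in TFCOs, above both thyroid tissues (545 and 731) and overlapping lung (7617 and 3720). It passed neither test (limma adjusted p = 0.200 against thyroid and 0.248 against lung). Rtkn2 had at most 9.90 in TFCOs. Of these 8 genes, Clic5 and Spock2 were lower than in thyroid and 6 were lower than in lung. Among the genes called lower than in lung, Rtkn2 and the macrophage gene Marco passed the filter only with lung libraries counted. Without lung tissue 1 or lung tissue 2, 1 macrophage and 4 alveolar type 1 markers were lower than in lung, with 4 or 3 endothelial markers.

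Of 5 ciliated cell markers, Tekt1 and Tppp3 were lower in TFCOs than in thyroid and 3 were lower than in lung. The shares of all genes were 3.05% and 13.5%. The sum of the ciliated cell markers, 271 to 6381 in TFCOs, came mainly from Foxj1 in mThy16. Among 12 thyroid follicular cell markers, Dio1, a deiodinase, was called lower in TFCOs than in thyroid. The median log2 fold change of the 12 against thyroid tissue was -1.93, with 3 above 0. Tg (-5.87, limma adjusted p = 0.0620) and Slc5a5 (-4.08, limma adjusted p = 0.105) lay below both thyroid tissues in every TFCO library without passing the test. Of the 12 markers, 9 were higher than in lung, where 9.83% of all genes were higher. Without lung tissue 1 or lung tissue 2, 1 ciliated marker was lower and 5 or 6 thyroid markers were higher than in lung. The calls against thyroid fell to 1 endothelial, 1 alveolar type 1 and 0 ciliated, macrophage or thyroid markers without thyroid tissue 2, to 2, 1 and 0 with either lung tissue left out and to 0 in a fit of these groups only. Without late mThy14 TFCOs they fell to 1 ciliated and 0 thyroid markers. Against thyroid tissue 1 alone the log2 differences of the called genes were -5.29 for Mrc1, -5.18 for Dio1, -3.33 for Tppp3, -2.82 for Tekt1, -3.19 for Clic5 and -3.31 for Spock2. Those of the endothelial genes were -4.87 for Cdh5, -4.03 for Cldn5 and -2.70 for Kdr. Between passages 0 genes of any of these lists passed the test. The part of any of these cells in the levels of Sftpb, Sftpd and Slc34a2 was not tested.

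Genes whose profile over the 8 libraries was most like that of Sftpb were taken by Pearson's r of log2(normalized count + 1), among genes that reached 50 normalized counts in a library. They were Trem1 (r = 0.988), St3gal4 (0.967), Shh (0.957), Eif4h (0.954) and Btg2 (0.954), and among the members Slc34a2 (0.974) and Sftpd (0.936) were nearest. Shh had 10.4 to 33.7 normalized counts in TFCOs, at most 2.18 in thyroid and 164 and 109.9 in lung. For Sftpd they were Vsnl1 (r = 0.966), Mycl (0.963), Hs3st1 (0.954), Rac3 (0.952) and Trem1 (0.948). The 8 points share lines, tissues and library sets, so these values are a description with no test.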

How the data were processed

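Mouse TFCOs of 2 lines at 2 passages, 2 thyroid tissues and 2 lung tissues were analysed from 1 table. The authors deposited normalized counts, a signal in which the reads on each gene are scaled by the size factor of its library. The authors used DESeq2 for this, after a stranded TruSeq mRNA kit and paired-end reads per the methods, whereas an adapted CEL-Seq protocol stands in the labels. The submitters' processing notes list BWA 0.6.2-r126 and the builds hg38 and mm10, with no role given. The annotation used for counting is not given in the sources used here. In every library 100% of values above 0 were whole multiples of 1 step (tolerance 0.01), and this step gave the reads quoted. The step of early mThy16 was 0.990, close to 1, so whole multiples are weaker evidence of reads there. No test was run on these reads.

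Tests used limma 3.58.1 (R 4.3.3) on the log2 of normalized counts after adding 1, which shrinks the fold changes of low genes, with limma's trend option. P-values were adjusted by Benjamini-Hochberg over 14703 of 16119 genes, those reaching 10 in 2 or more libraries, and the threshold was 0.05. For TFCOs against a tissue, both passages of each line were first averaged, in 1 fit with both tissues. Passages were compared in a fit of all 8 libraries. Lines pair the passages, since the labels give the same line at both. Across 14703 genes the difference between the lines at the early and at the late passage had r = 0.477. With 2 libraries per group, an exact permutation test cannot give a two-sided p below 0.333, so none was run for single genes. The labels name 2 biological replicates per group and no animals, so p-values measure the spread between these samples.

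The members and the gene lists were chosen with earlier results of these data known. All members are named, and from each list up to 4 genes past the threshold with the largest change and no overlap between groups, plus Nkx2-1, Foxa1, Foxa2, Gata6, Cebpa and Ctsh. Genes outside this rule were chosen after their values were seen. Not in the table were Scd1, Cxcl15, Chia1, Hc, Sfta3-ps, Cyp2f2, Cbr2, Aox3, Chil3, Ear2 and Siglecf. Positions and transcript lengths came from GENCODE M21 and promoters from RefSeq. The fits were tested on simulated data. Alternatives changed the pseudocount, filter, scaling, trend, replicate block or groups fitted, or omitted each library in turn. Values without single libraries for the lists and for the members' limits were added after seeing the data. Planned count models were not run.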

Additional observations from a re-analysis of the deposited data

Results flagged for a closer look

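Sftpc and Lamp3 changed in opposite directions in the 2 TFCO lines between the early and the late passage. For Sftpc the log2 change was 5.06 in mThy14 and -1.35 in mThy16, and for Lamp3 it was 1.62 in mThy14 and -3.99 in mThy16. With 1 library per line and passage, the difference between the lines was not tested. Both genes were near 0 in TFCOs compared with lung. The Sftpc values were 5 and 256 reads in early and late mThy14 and 36 and 12 in early and late mThy16. The Lamp3 values were 0 and 2 reads in mThy14 and 15 and 0 in mThy16.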

How the results depend on the processing

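Members near 0 rest on few reads, and with 2 lines and 2 tissues the counts of called genes depended on the libraries. Against thyroid tissue 536 genes passed, with 124 when the fit held only these groups and 1322 with TFCO libraries as separate samples, and 143 (without thyroid tissue 2) to 4026 (without thyroid tissue 1) when each library was left out, including 187 and 184 without a lung tissue. Against lung 3435 genes passed, with 6979 in a fit of only these groups and 6625 with separate libraries, and 296 (without lung tissue 2) to 6981 (without thyroid tissue 2) when a library was left out, including 372 without lung tissue 1 and 6928 without thyroid tissue 1. The cause was not tested. Against lung, scaling moved the median log2 fold change of all genes from 0.05 to -0.08 (same total) or 0.32 (quantile), and against thyroid tissue quantile normalization moved it to 0.17.

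Between passages 0 genes passed, with a range of 0 to 2 when each library was left out. The 2 genes, found without late mThy16 and named after their values were seen, were Egfl6 and Smpdl3a. The replicate block by TFCO line also called 0 genes, with 224 at an unadjusted p under 0.05 against 166, and changed no call. Leaving out a library turned the passage change of 6 members. The ranges were -0.17 to 0.75 for Sftpa1, -0.25 to 3.96 for Sftpc, -1.94 to 0.28 for Sftpd, -0.54 to 0.41 for Abca3, -3.17 to 0.81 for Lamp3 and -1.88 to 0.051 for Napsa. The difference from thyroid tissue was turned for Napsa with thyroid tissue 2 alone (-0.11) and for Scgb1a1 with thyroid tissue 1 alone (0.11). It also changed sign for Abca3 (-0.19) and Lamp3 (0.46) with thyroid tissue 2 alone, and for Abca3 with quantile normalization (-0.31). For Abca3 and Lamp3 the main difference was below the SD between lines. The planned count models were not run.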

Other observations

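Several secretory genes of the airway list were high in TFCO line mThy16 and not in mThy14. Their choice followed from their values, and the difference between lines has 1 library per line and passage. Ltf, which encodes the secreted iron-binding protein lactoferrin, was at 52989 (early) and 55098 (late) normalized counts in mThy16, 33.7 and 405 in mThy14, 83.8 and 1605 in thyroid and 264 and 225 in lung. Gabrp had 9896 and 9868 in mThy16, 0 and 16.7 in mThy14, at most 7.38 in thyroid and 1716 and 1261 in lung. Pigr, the receptor that carries IgA across epithelium, had 3282 and 2631 in mThy16, 28.1 and 58.3 in mThy14, at most 72.8 in thyroid and 1344 and 470 in lung. The ciliated cell regulator Foxj1 had the same order, with 6122 and 6016 in mThy16 and 35.1 and 442 in mThy14, while the ciliary gene Tekt1 had at most 134.9 in any TFCO library. Muc1, a membrane mucin of the alveolar type 2 list, had 1251 and 1327 in mThy16 and 109.6 and 203 in mThy14.

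Late mThy14 TFCOs were low for some listed genes in comparison with the other TFCO libraries. Adgrf5 had 6.25 normalized counts there and 349 to 424 in the other TFCO libraries, and Egfl6 had 0 there and 215 to 246 in the others.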
